A study of Mus musculus with 9 samples.

Results

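The astrocyte lineage genes described here are 36 of the 55401 genes in the count table, chosen by name, with earlier results of these data known. They comprise 8 early gliogenic regulators, 8 genes of progenitors and immature glia, and 20 genes of differentiated astrocytes. They were measured by RNA-seq in bulk forebrain of female mouse embryos at embryonic day (E) 16 to 17, with 5 wild-type (WT) and 4 *Npas3+/-* (HET) embryos. HET embryos carried 1 constitutively deleted copy of *Npas3*, which encodes a transcription factor of the basic helix-loop-helix PAS family, in every cell. The strain background was C57BL/6J, the parents were HET mice mated with HET or C57BL/6J partners, and the WT embryos were *Npas3+/+* littermates. Each library is 1 embryo, named here by the number in its label.

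Astrocytes arise from radial glia, the progenitors that first make neurons. Notch, BMP and gp130-JAK-STAT signals together with *Sox9* and the nuclear factor I proteins move these progenitors from neurogenesis to gliogenesis. The genes of astrocyte end-feet, gap junctions and transmitter uptake are switched on later, largely after birth, so that late embryonic forebrain is caught at the start of this sequence.

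Total counts were 42640218 to 62830060 per embryo, and values are given as CPM, the count of a gene scaled to the size of its library with the TMM method of edgeR. The sample labels name the cell type as astrocytes, but the libraries hold whole tissue: 8 neuron markers summed to 6047 to 6694 CPM in WT and 6036 to 6982 CPM in HET embryos. The mean of *Npas3* itself was 36.2 ± 4.18 CPM over the 5 WT embryos and 29.5 ± 3.09 CPM over the 4 HET embryos (± SD), with a log2 fold change of −0.30 (SE 0.10) and an edgeR adjusted p of 0.877. The groups overlapped for *Npas3*, so the gene does not by itself separate the labels. The libraries also differed in choroid plexus RNA. *Ttr*, which encodes the transthyretin that this tissue secretes, had 0.770 to 11.7 CPM in 5 libraries (WT 5 and 43, HET 5, 6 and 7), 467 CPM in HET 24 and 2127 to 2631 CPM in the other 3 WT libraries. Genes that move with *Ttr* are therefore also given for those 5 embryos with *Ttr* under 100 CPM.

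The levels of the astrocyte lineage genes spanned more than 3 orders of magnitude in WT forebrain, when divided by exon length so that genes can be compared. *Dbi*, which encodes an acyl-CoA binding protein, led at 171 ± 16.0 CPM per kb, followed by *Nfix* at 135 ± 27.1 and *Nfib* at 92.6 ± 17.99 CPM per kb (SD, n = 5). The ranges of *Dbi* and *Nfix* overlapped. All 8 early regulators had at least 15.3 CPM per kb and all 8 progenitor genes at least 7.35 CPM per kb on average. The 20 differentiated astrocyte genes reached from 63.2 CPM per kb for *Ndrg2* down to 0.0379 CPM per kb for *Gjb6*, and they filled the 12 lowest ranks. At the bottom were *Aqp4* at 0.237 ± 0.0508, *Ntsr2* at 0.122 ± 0.0357, *Gpr37l1* at 0.116 ± 0.0441 and *S100b* at 0.0992 ± 0.0279 CPM per kb, and the last 3 of these lie within 1 SD of each other.

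**Figure D1:**
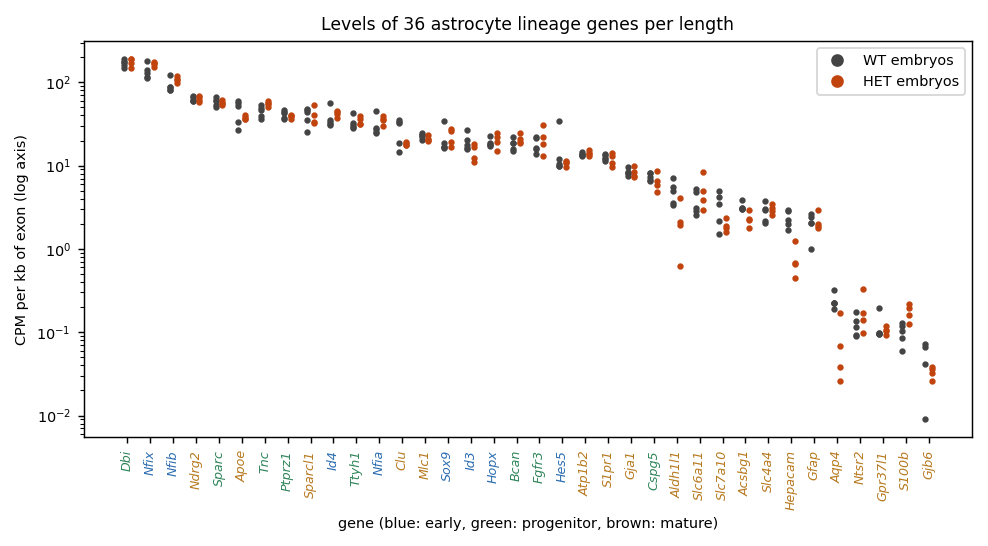
Level of each of the 36 astrocyte lineage genes in every embryo, in CPM per kb of exon on a log axis, ordered by the WT mean (grey, 5 WT embryos; orange, 4 HET embryos; a value of 0 is not drawn). The 12 lowest ranks from *Aldh1l1* to *Gjb6* are all genes of differentiated astrocytes, and the HET points of *Hepacam* and *Aqp4* lie below all of their WT points.

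Of the defining markers of astrocytes, the calcium-binding protein gene *S100b* had 4 to 17 reads per embryo and *Gjb6*, which encodes connexin 30, had 0 to 9 reads. *S100b* was at 0.177, 0.152, 0.126, 0.0883 and 0.192 CPM in WT embryos 15, 16, 41, 43 and 5, against 0.326, 0.238, 0.186 and 0.289 CPM in HET embryos 24, 5, 6 and 7. The HET values were the higher ones except that of embryo 6, which lay below WT embryo 5. *Gjb6* had no read in WT embryo 43, which allows up to 3 reads or 0.0654 CPM (counting error only). Neither gene passed the filter on low counts, which left 34 of the 36 genes for the test against all 17818 genes tested.

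None of the 34 genes passed an adjusted p of 0.05 in edgeR's quasi-likelihood test of HET against WT, in either direction. Over all genes tested, 0.112% were called lower and 0.0281% were called higher in HET embryos. At an unadjusted p under 0.05, 7 of the 34 were lower in HET embryos, against 3.09% of all genes, and 2 were higher, against 2.32%. The 7 were *Hepacam*, *Aqp4*, *Acsbg1*, *Aldh1l1*, *Slc7a10*, *Clu* and *Id3*, of which 6 belong to differentiated astrocytes, and the 2 were *Tnc* and *Nfix*. In 3 genes, *Hepacam*, *Aqp4* and *Acsbg1*, the highest HET embryo was below the lowest WT embryo (1.07% of all genes), and in 0 of 34 was the lowest HET embryo above the highest WT embryo (0.786%). DESeq2, the tool the study used, called 2 of the genes lower, *Hepacam* with an adjusted p of 3.56e-07 and *Aqp4* with 0.0310, while it called 0.286% of all genes it tested lower. The genes are given by stage below. In bulk tissue, fewer cells of a type and less RNA per cell cannot be told apart.

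**Figure D2:**
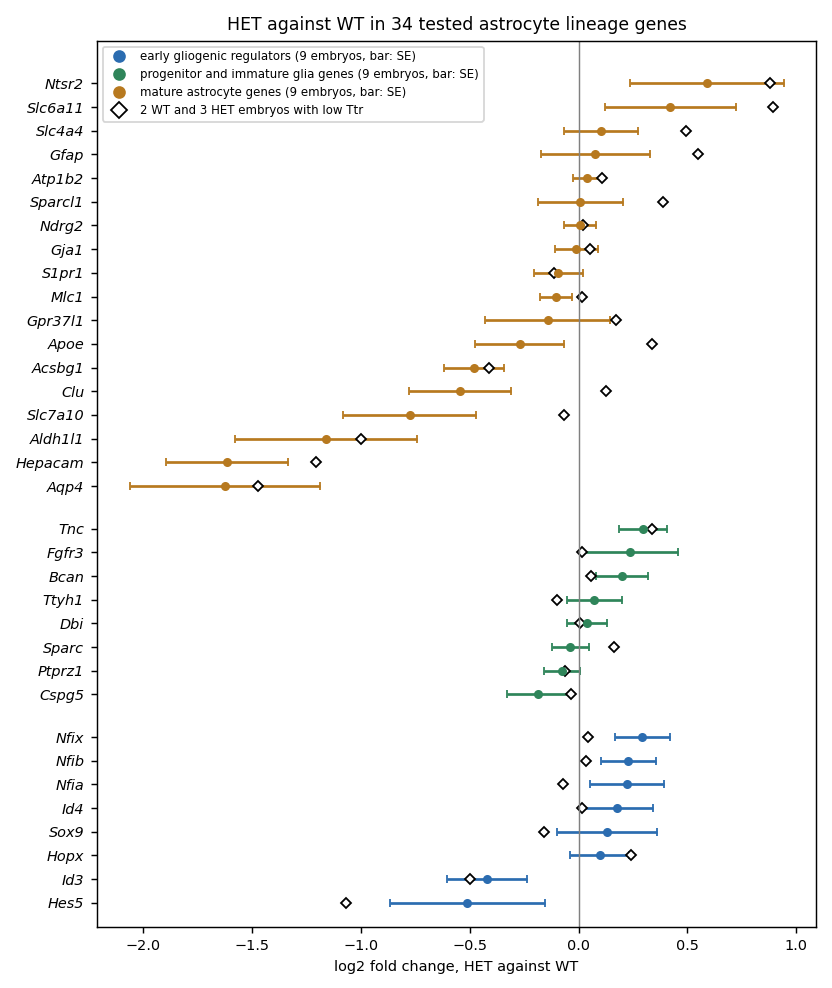
Log2 fold change of HET against WT for the 34 tested genes, by stage (coloured points, edgeR fit over 9 embryos with SE bars; open diamonds, fit over the 5 embryos with *Ttr* under 100 CPM). *Aqp4* and *Hepacam* lie furthest to the left in both fits, whereas the diamonds of *Clu*, *Apoe* and *Slc7a10* sit near or above 0.

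The early regulators were centred slightly above 0, with a median log2 fold change of 0.15 over the 8 genes, against −0.0046 over all genes tested. Of these genes 6 were higher and 2 lower in HET embryos by sign. In each direction 1 had an unadjusted p under 0.05, against 3.09% of all genes lower and 2.32% higher. The median was −0.028 among the 5 embryos with low *Ttr*, of which WT embryo 5 is 1 of the 2 WT embryos, and 0.048 with a choroid plexus score as a covariate. *Sox9*, an HMG-box factor needed for the switch to gliogenesis, was at 67.8, 69.8, 69.8, 76.6 and 140 CPM in WT embryos 15, 16, 41, 43 and 5, against 79.9, 115, 107 and 70.0 CPM in HET embryos 24, 5, 6 and 7. WT embryo 5 was the highest of all 9 embryos, and the other 4 WT embryos overlapped with HET embryo 7 alone. The log2 fold change of *Sox9* was 0.13 (SE 0.23, edgeR adjusted p = 0.941).

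The nuclear factor I genes *Nfia*, *Nfib* and *Nfix*, which encode transcription factors that activate astrocyte genes, shared this distribution. *Nfia* was at 299, 276, 269, 308 and 499 CPM in WT embryos 15, 16, 41, 43 and 5, against 389, 400, 425 and 328 CPM in HET embryos 24, 5, 6 and 7. All 4 HET values were thus above 4 of the WT values and below that of WT embryo 5. *Nfix* followed the same order, with 947, 843, 835, 1026 and 1322 CPM in WT and 1249, 1289, 1110 and 1227 CPM in HET embryos, and a log2 fold change of 0.29 (SE 0.13, edgeR adjusted p = 0.911). *Nfib* had 1194 to 1853 CPM in WT and 1459 to 1769 CPM in HET embryos, with a log2 fold change of 0.23 (SE 0.13). In the low-*Ttr* embryos alone the log2 fold changes were 0.043 for *Nfix*, 0.035 for *Nfib* and −0.070 for *Nfia*.

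The Id proteins and *Hes5* keep progenitors undifferentiated by blocking basic helix-loop-helix activators. *Id3* was at 31.5, 36.6, 28.4, 29.1 and 47.8 CPM in WT embryos 15, 16, 41, 43 and 5, against 22.0, 32.2, 29.6 and 19.7 CPM in HET embryos 24, 5, 6 and 7. HET embryos 24 and 7 were below all WT embryos and the other two lay within the WT range, with a log2 fold change of −0.42 (SE 0.18, edgeR adjusted p = 0.911). *Id4*, which had 118 to 217 CPM in WT and 145 to 176 CPM in HET embryos, had a log2 fold change of 0.18 (SE 0.17), and of 0.014 among the embryos with low *Ttr*. *Hes5*, a Notch target, was at 13.5, 16.3, 13.6, 14.2 and 46.6 CPM in WT embryos 15, 16, 41, 43 and 5, against 14.98, 15.6, 14.8 and 13.0 CPM in HET embryos 24, 5, 6 and 7. Its log2 fold change of −0.51 (SE 0.36) rests on WT embryo 5 alone and was 0.02 without that embryo. *Hopx*, a homeodomain protein of radial glia that does not bind DNA, had 25.8 to 34.1 CPM in WT and 22.6 to 37.3 CPM in HET embryos (log2 fold change 0.10, SE 0.14). In *Hes5* and *Hopx*, 31.8% and 27.2% of the exonic bases are overlapped by a gene on the other strand, and reads of such a pair may not be told apart, since the strand setting of the count is not given in the sources used here.

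WT embryo 5 was the highest of the 9 embryos in 7 of the 8 early regulators, in 1 of the 8 progenitor genes and in 0 of the 20 differentiated astrocyte genes, in 6 of which it was the lowest. Over all genes tested it was the highest in 14.0%. The mean log2 CPM of the 8 early regulators was 7.62 in WT embryo 5, 6.82 to 6.94 in the other WT embryos and 6.93 to 7.27 in HET embryos. Without this embryo, 8 of the 34 genes were higher in HET embryos at an unadjusted p under 0.05, against 4.6% of all genes, although the adjusted p of these genes was 0.148 or more. The 8 were *Nfia*, *Nfix*, *Nfib*, *Id4* and *Sox9* among the early regulators and *Tnc*, *Bcan* and *Ttyh1* among the progenitor genes. Their log2 fold changes without WT embryo 5 ran from 0.19 for *Ttyh1* to 0.42 for *Nfia*. In a gene where WT embryo 5 was the highest, leaving it out raises the fold change by construction. Of the WT embryos left, 15, 16 and 41 had high *Ttr*, so that genotype and choroid plexus RNA can hardly be told apart. The low-*Ttr* embryos include WT embryo 5. Among them the log2 fold changes of these 8 genes ran from −0.16 for *Sox9* to 0.34 for *Tnc*.

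**Figure D3:**
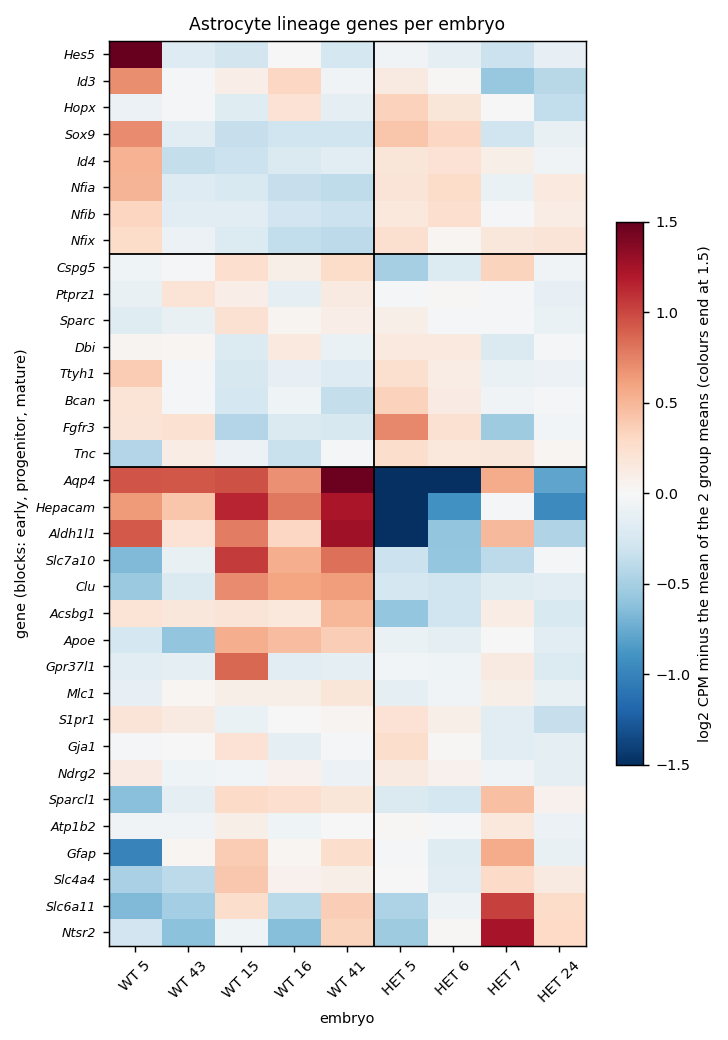
Log2 CPM of the 34 tested genes in each of the 9 embryos, minus the mean of the WT and HET group means, with colours that end at 1.5 in both directions (red, above; blue, below). WT embryo 5 stands out red in the early block, and HET embryos 5, 6 and 24 are blue in *Aqp4*, *Hepacam* and *Aldh1l1* while HET embryo 7 is nearer to the WT embryos.

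The genes of progenitors and immature glia were centred near 0, with a median log2 fold change of 0.06 over 8 genes and a range from −0.19 to 0.30. *Tnc*, which encodes the extracellular matrix protein tenascin C, was at 364, 306, 382, 418 and 285 CPM in WT embryos 15, 16, 41, 43 and 5, against 393, 464, 430 and 436 CPM in HET embryos 24, 5, 6 and 7. Every HET embryo but 24 was above every WT embryo, and the log2 fold change was 0.30 (SE 0.11, edgeR adjusted p = 0.908). *Fgfr3*, an FGF receptor of gliogenic progenitors, was at 99.7, 116, 114, 158 and 154 CPM in WT embryos 15, 16, 41, 43 and 5, against 131, 221, 158 and 93.1 CPM in HET embryos 24, 5, 6 and 7. The HET values of *Fgfr3* reached both below and above the WT range, with a log2 fold change of 0.23 (SE 0.22), and 13.9% of its exonic bases are overlapped by a gene on the other strand.

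The remaining progenitor genes had overlapping groups. *Bcan*, which encodes the matrix proteoglycan brevican, had 61.0 to 90.2 CPM in WT and 75.1 to 99.7 CPM in HET embryos (log2 fold change 0.20, SE 0.12). The membrane protein gene *Ttyh1* had 180 to 277 CPM in WT and 199 to 250.96 CPM in HET embryos (0.07, SE 0.13). *Ptprz1*, a receptor tyrosine phosphatase of radial glia, had 514 to 654 CPM in WT and 521 to 574 CPM in HET embryos (−0.08, SE 0.08). *Dbi* had 214 to 273 CPM in WT and 212 to 273 CPM in HET embryos (0.04, SE 0.09), and *Sparc*, a secreted matrix-binding protein, had 192 to 255 CPM and 203 to 230 CPM (−0.04, SE 0.09). *Cspg5*, which encodes the proteoglycan neuroglycan C, had the lowest log2 fold change of the 8, −0.19 (SE 0.15), with 65.5 to 83.1 CPM in WT and 48.7 to 86.4 CPM in HET embryos.

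Among the differentiated astrocyte genes, the lower values in HET embryos were concentrated in a few genes rather than spread over the group. Over the 18 tested genes the median log2 fold change stood at −0.10, with 11 lower and 7 higher in HET embryos by sign. Of the 18, 6 were lower at an unadjusted p under 0.05, against 3.09% of all genes. The lowest fold changes were those of *Aqp4*, *Hepacam* and *Aldh1l1*, whose HET means were 0.321, 0.326 and 0.448 times the WT means. Connexin 43, the end-foot protein *Mlc1* and the sodium pump subunit *Atp1b2* had HET means of 0.993, 0.930 and 1.03 times the WT means.

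*Hepacam* encodes a glial cell adhesion molecule that binds *Mlc1* at astrocyte junctions, and lies on chromosome 9 from 37367351 to 37386575 (plus strand, GRCm38). It was at 9.47, 7.40, 9.94, 5.72 and 6.64 CPM in WT embryos 15, 16, 41, 43 and 5, against 2.21, 1.52, 2.28 and 4.195 CPM in HET embryos 24, 5, 6 and 7. HET embryo 7 was the highest of its group and still below WT embryo 43, the lowest of the WT embryos. The 3 WT embryos with high *Ttr* were the highest of all. The WT mean was 7.83 ± 1.82 CPM (SD, n = 5) and the HET mean 2.55 ± 1.15 CPM (SD, n = 4). The log2 fold change was −1.62 (SE 0.28), with an edgeR adjusted p of 0.0733. The adjusted p fell under 0.05 without HET embryo 7 (0.00875) and with no filter on low counts (0.00723). When the 5 embryos with low *Ttr* were compared alone, the log2 fold change was −1.21 (edgeR adjusted p = 0.999). The genotypes could not overlap there, as they did not over all embryos, and 8.95% of all genes were lower there without overlap. The partner gene *Mlc1* had 56.1 to 69.6 CPM in WT and 55.9 to 64.8 CPM in HET embryos, with a log2 fold change of −0.11 (SE 0.07).

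*Aqp4*, the gene of the water channel of astrocyte end-feet, was at 1.42, 1.17, 2.02, 1.39 and 1.40 CPM in WT embryos 15, 16, 41, 43 and 5, against 0.422, 0.238, 0.163 and 1.07 CPM in HET embryos 24, 5, 6 and 7. HET embryo 7 came close to the WT range, and the other 3 HET embryos were at less than 0.5 CPM. These levels rest on 7 to 128 reads per embryo. The log2 fold change was −1.63 (SE 0.44, edgeR adjusted p = 0.555), and without HET embryo 7 it was −2.40 with an adjusted p of 0.0209. *Aqp4* lies on chromosome 18 from 15389496 to 15410982 on the minus strand.

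*Acsbg1* encodes an acyl-CoA synthetase for long-chain fatty acids and occupies 54604877 to 54661870 of chromosome 9 (minus strand). It was at 11.1, 10.9, 13.8, 10.95 and 11.2 CPM in WT embryos 15, 16, 41, 43 and 5, against 8.28, 6.52, 7.92 and 10.5 CPM in HET embryos 24, 5, 6 and 7. In WT, 4 of the values lay within 10.9 to 11.2 CPM, and the highest HET value, of embryo 7, was just under them. The log2 fold change was −0.48 (SE 0.14, edgeR adjusted p = 0.671) and was −0.41 in the embryos with low *Ttr*.

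*Aldh1l1*, which encodes a folate enzyme used as a marker of the whole astrocyte lineage, was at 22.4, 16.3, 31.7, 15.3 and 24.8 CPM in WT embryos 15, 16, 41, 43 and 5, against 9.62, 2.79, 8.69 and 18.5 CPM in HET embryos 24, 5, 6 and 7. HET embryos 24, 5 and 6 were below every WT embryo, while HET embryo 7 was within the WT range. The log2 fold change was −1.16 (SE 0.42, edgeR adjusted p = 0.904). *Aldh1l1* lies on chromosome 6 from 90486427 to 90600203 on the plus strand, and 13.4% of its exonic bases are overlapped by other genes. Its second neighbour, *Klf15*, 11188 bases away, encodes a Krüppel-like factor and was lower in all 4 HET embryos, with a mean of 9.93 ± 0.536 CPM over the 5 WT embryos and 6.04 ± 0.715 CPM over the 4 HET embryos (± SD) and an edgeR adjusted p of 0.0291.

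**Figure D4:**
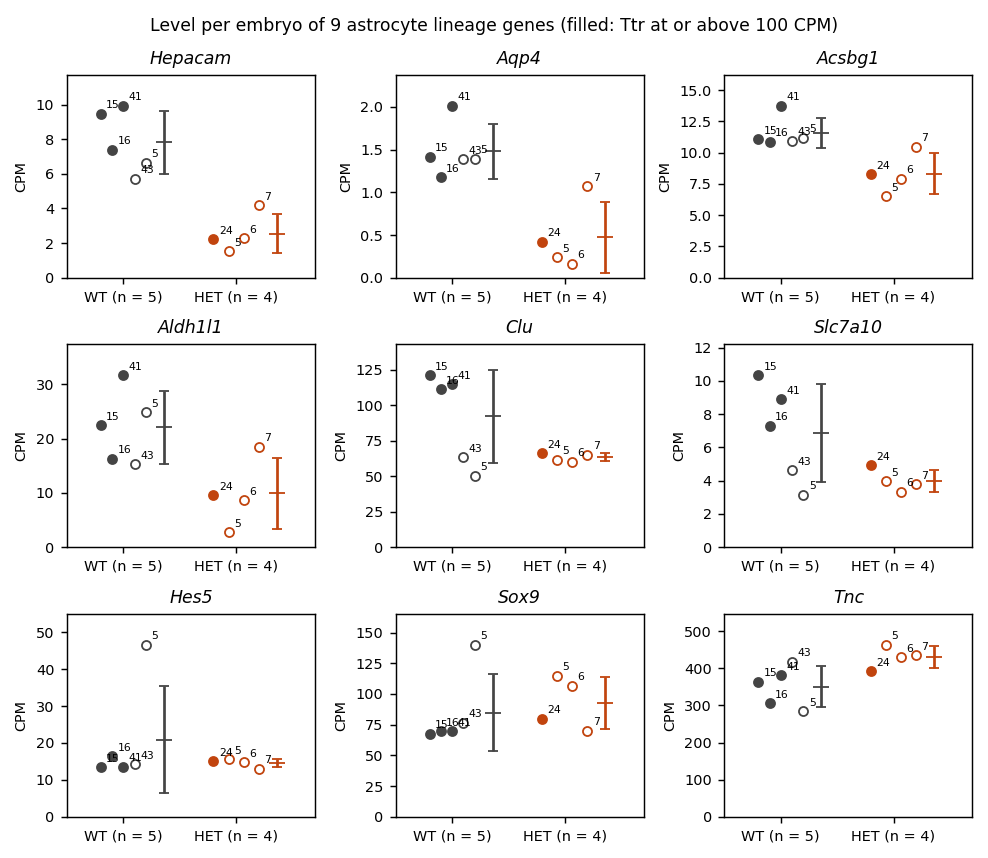
CPM per embryo for 9 astrocyte lineage genes, with embryo numbers, and group means with SD bars at the right of each group (grey, 5 WT; orange, 4 HET; filled, *Ttr* at or above 100 CPM; open, under 100 CPM). In *Hepacam*, *Aqp4* and *Acsbg1* all HET points are below all WT points, in *Clu* and *Slc7a10* the filled WT points are the high ones, and in *Hes5* and *Sox9* WT embryo 5 stands apart.

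HET embryo 7 had the highest value of the 4 HET embryos in 14 of the 20 differentiated astrocyte genes, and in 29.4% of all genes tested. The mean log2 CPM of the 18 tested genes was 4.17 in this embryo, 3.54 to 3.77 in the other HET embryos and 3.84 to 4.37 in WT embryos. By this mean HET embryos 5, 6 and 24 were below all WT embryos and HET embryo 7 was not. The summed CPM of the 20 genes did not show this order. HET embryos 24, 5 and 6 had sums of 769, 804 and 777 CPM, above WT embryos 43 and 5 at 759 and 755 CPM. The *Npas3* level of HET embryo 7, 34.1 CPM, was also the highest of the HET embryos, the others being at 27.8 to 28.2 CPM. The summed markers of neurons (6982 CPM), the oligodendrocyte lineage (114 CPM), microglia (54.6 CPM) and endothelial and mural cells (194 CPM) were likewise highest in HET embryo 7 among the HET embryos. The part of these in its astrocyte gene levels was not tested.

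**Figure D5:**
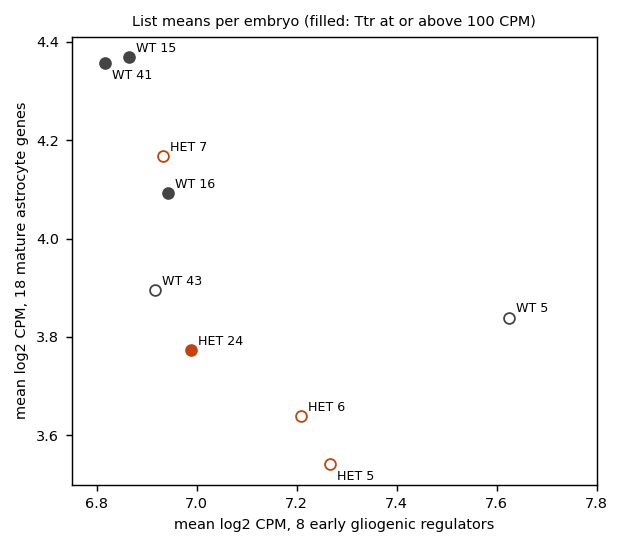
Mean log2 CPM of the 18 tested differentiated astrocyte genes against that of the 8 early regulators, 1 point per embryo (grey, WT; orange, HET; filled, *Ttr* at or above 100 CPM; open, under 100 CPM). WT embryo 5 lies far to the right at 7.62, HET embryos 5 and 6 lie lowest at 3.54 and 3.64, and HET embryo 7 lies among the WT embryos at 4.17.

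*Clu*, *Slc7a10* and *Apoe* were higher in the WT embryos with high *Ttr* than in the other WT embryos. *Clu*, which encodes the apolipoprotein clusterin, was at 121, 111 and 115 CPM in the high-*Ttr* WT embryos 15, 16 and 41, at 63.5 and 50.4 CPM in WT embryos 43 and 5, and at 66.1, 61.5, 60.04 and 65.1 CPM in HET embryos 24, 5, 6 and 7. Its log2 fold change of −0.55 (SE 0.23, edgeR adjusted p = 0.911) became 0.13 among the embryos with low *Ttr*. *Slc7a10*, a transporter of small neutral amino acids such as serine, was at 10.4, 7.31, 8.89, 4.62 and 3.15 CPM in WT embryos 15, 16, 41, 43 and 5, against 4.92, 3.98, 3.33 and 3.80 CPM in HET embryos 24, 5, 6 and 7. The 3 high-*Ttr* WT embryos were again the high ones, and the log2 fold change of −0.78 (SE 0.31) was −0.07 among the embryos with low *Ttr*. Of the exonic bases of *Slc7a10*, 17.9% are overlapped by *Lrp3* on the other strand. *Apoe*, the main lipoprotein gene of astrocytes, had 112 to 127 CPM in the high-*Ttr* WT embryos and 57.8 and 72.1 CPM in WT embryos 43 and 5. In HET embryos it had 78.0 to 86.3 CPM, and its log2 fold change went from −0.27 (SE 0.20) to 0.34 among the embryos with low *Ttr*. HET embryo 24, with 467 CPM of *Ttr*, was the highest HET embryo in *Clu* and *Slc7a10* but the lowest in *Apoe*. The 8 choroid plexus markers summed to 18.04 to 2866 CPM in WT and 27.5 to 526 CPM in HET embryos. Of the 8, 5 were lower in HET embryos at an unadjusted p under 0.05, against 3.09% of all genes. The part of choroid plexus RNA in the values above was not tested.

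Among the 5 embryos with low *Ttr*, all HET embryos were below both WT embryos in 3 of the 34 genes, against 8.95% of all genes. These were *Hepacam*, *Aqp4* and *Acsbg1*, whose groups did not overlap over all embryos and so could not overlap here. All HET embryos were above both WT embryos in 8 of the 34 genes, against 8.44% of all genes. These 8 were *Sparc*, *Tnc*, *Hopx*, *Apoe*, *Atp1b2*, *Slc6a11*, *Slc4a4* and *Gpr37l1*, so that 5 of them were differentiated astrocyte genes. Of these, *Gpr37l1* had only 9 to 20 reads per embryo, and HET embryo 6 at 0.233 CPM was barely above WT embryo 43 at 0.221 CPM. The median log2 fold change of the 18 differentiated genes was 0.08 in this comparison, and the edgeR adjusted p of each of the 34 was 0.999.

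The other differentiated astrocyte genes overlapped between the groups over all 9 embryos. *Gfap*, the gene of the intermediate filament of astrocytes, was at 11.1, 8.70, 10.2, 8.70 and 4.23 CPM in WT embryos 15, 16, 41, 43 and 5, against 7.89, 8.34, 7.499 and 12.5 CPM in HET embryos 24, 5, 6 and 7. The lowest value was that of WT embryo 5 and the highest that of HET embryo 7, with a log2 fold change of 0.08 (SE 0.25), and of 0.55 among the embryos with low *Ttr*. *Slc6a11*, the GABA transporter GAT3, had 13.0 to 26.7 CPM in WT and 14.96 to 41.8 CPM in HET embryos (log2 fold change 0.42, SE 0.30). The bicarbonate cotransporter gene *Slc4a4* had 21.9 to 40.4 CPM and 27.4 to 37.3 CPM (0.10, SE 0.17). *Gja1*, which encodes connexin 43, had 77.1 to 98.3 CPM in WT and 75.5 to 102 CPM in HET embryos (−0.01, SE 0.10). *Atp1b2* had 53.9 to 59.8 CPM and 53.4 to 63.1 CPM (0.04, SE 0.06), and *Ndrg2* had 201 to 234 CPM and 195 to 235 CPM (0.01, SE 0.07).

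*Sparcl1*, which encodes the synaptogenic protein hevin, had 74.3 to 140 CPM in WT and 95.5 to 157 CPM in HET embryos (log2 fold change 0.01, SE 0.20). *Slc4a4* and *Sparcl1* were also higher in the high-*Ttr* WT embryos 15, 16 and 41 than in WT embryos 43 and 5, and among the embryos with low *Ttr* their log2 fold changes were 0.49 and 0.39. *Slc6a11* was also higher in each of those WT embryos (24.7, 15.53 and 26.7 CPM) than in WT embryos 43 and 5 (14.4 and 13.0 CPM), and its log2 fold change was 0.89 among the embryos with low *Ttr* and 0.71 with the choroid plexus covariate. The lipid receptor gene *S1pr1* had 34.7 to 42.5 CPM and 29.2 to 43.1 CPM (−0.09, SE 0.11). The receptor genes *Ntsr2* and *Gpr37l1* were barely detected, with 13 to 50 and 9 to 20 reads per embryo, and their log2 fold changes were 0.59 (SE 0.35) and −0.14 (SE 0.29). At these depths neither difference can be told from 0, which does not show that the groups were alike.

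Because the deleted gene encodes a basic helix-loop-helix protein, a class that binds E-boxes, the promoter windows of the genes were read for this motif. The windows run from 250 bases before to 50 bases after a RefSeq start site on GRCm38.p6, and they were given for 28 of the 36 genes in 40 windows. The E-box CANNTG was in 27 of the 40 windows (67.5%) and in 72.3% of the 32851 windows of all genes. By gene, 22 of the 28 had 1 in at least 1 window. The share by gene over all genes is not given, so this count cannot be set against the 72.3%, which is by window. The full nuclear factor I site, TTGGC and GCCAA with 5 bases between, was in 0 of the 40 windows and in 0.0365% of all windows. The STAT site TTCNNNGAA was in 4 of the 40 windows (10%) and in 8.3% of all. Each motif is its own reverse complement, so both strands were read. The sequences of *Hepacam* and *Acsbg1*, the genes on chromosome 9 whose genotypes did not overlap, show an E-box toward the upstream end of the window. For *Hepacam* the 30 bases at chr9:37367391-37367420 (plus strand) are given, and for *Acsbg1* the 265 bases at chr9:54661871-54662135 (minus strand), each 5′ to 3′ with the E-box in capitals.
Hepacam: gaaccactggacCACCTGagccccatagga
Acsbg1: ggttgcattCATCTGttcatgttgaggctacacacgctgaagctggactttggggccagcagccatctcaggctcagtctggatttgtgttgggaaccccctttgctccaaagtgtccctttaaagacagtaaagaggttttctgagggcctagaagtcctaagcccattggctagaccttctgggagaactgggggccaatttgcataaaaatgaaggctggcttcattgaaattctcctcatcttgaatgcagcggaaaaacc
The E-box starts 203 bases before the RefSeq start site in *Hepacam*, where GENCODE places a 5′ exon, and 241 bases before it in *Acsbg1*, whose window also holds 1 STAT site. A match is a description of the sequence and no evidence of binding.

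A list of 46 further genes, called the signalling list here, was read as well, of which 44 were tested. It held 10 Notch, 12 gp130-JAK-STAT and 12 BMP genes. The other 12 were further regulators and radial glia genes, which are not signals. In this list 1 gene passed the adjusted threshold in edgeR, against 0.112% of all genes called lower and 0.0281% called higher. It was *Fabp7*, the brain lipid-binding protein gene of radial glia, and no Notch, gp130-JAK-STAT or BMP gene passed. *Fabp7* was at 593, 750, 622, 599 and 528 CPM in WT embryos 15, 16, 41, 43 and 5, against 386, 268, 351 and 360 CPM in HET embryos 24, 5, 6 and 7. *Fabp7* fell in HET embryos with a log2 fold change of −0.86 (SE 0.12, edgeR adjusted p = 0.0223), and the groups did not overlap. On leaving out each embryo in turn, the log2 fold change of *Fabp7* stayed between −0.92 and −0.76 and its adjusted p ran from 0.0166 to 0.115, being above 0.05 without HET embryo 6 or 7 or without WT embryo 15, 41 or 43. In the low-*Ttr* embryos alone its log2 fold change was −0.79. At an unadjusted p under 0.05 there were 5 lower genes and 1 higher gene among the 44, where 3.09% of all genes were lower and 2.32% higher.

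The other 4 lower genes were *Sox8*, *Bmpr1b*, *Id1* and *Bmp4*, of which the last 3 belong to the 12 BMP genes (3.09% of all genes were lower). None of the 10 Notch genes was among them, and the difference between these lists was not tested. *Sox8*, a relative of the glial factors *Sox9* and *Sox10*, was at 23.4 ± 3.18 CPM in WT and 16.7 ± 2.12 CPM in HET embryos, with a log2 fold change of −0.48 (SE 0.12, edgeR adjusted p = 0.455). *Bmpr1b*, a type I BMP receptor, was at 5.82, 5.85, 6.70, 6.76 and 12.6 CPM in WT embryos 15, 16, 41, 43 and 5, against 3.94, 4.11, 3.77 and 4.49 CPM in HET embryos 24, 5, 6 and 7. All HET embryos were below all WT embryos, with a log2 fold change of −0.89 (SE 0.23, edgeR adjusted p = 0.489, DESeq2 adjusted p = 0.0227). *Id1*, a BMP target, was at 15.2 ± 3.78 CPM in WT and 9.75 ± 1.09 CPM in HET embryos (log2 fold change −0.64, SE 0.17), and its groups and those of *Sox8* also did not overlap. The ligand gene *Bmp4* had 0.866 to 3.10 CPM in WT and 0.599 to 1.33 CPM in HET embryos (log2 fold change −1.08, SE 0.38), and its 3 highest values were those of the high-*Ttr* WT embryos. Among the embryos with low *Ttr* its log2 fold change was −0.33, whereas those of *Bmpr1b*, *Id1* and *Sox8* were −1.23, −0.74 and −0.52. *Lifr*, the receptor subunit for leukaemia inhibitory factor, was the higher gene, at 22.5 ± 3.31 CPM in WT and 27.8 ± 1.90 CPM in HET embryos (0.31, SE 0.11, edgeR adjusted p = 0.897). WT embryo 5 was the highest embryo in 7 of the 10 Notch genes, as it was for *Hes5*.

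Markers of other cell types gave the following sums. Endothelial and mural markers summed to 175 to 225 CPM in WT and 168 to 194 CPM in HET embryos. Of these, 2 of 8 were lower at an unadjusted p under 0.05, against 3.09% of all genes. Oligodendrocyte lineage markers summed to 66.1 to 100 CPM and 70.8 to 114 CPM, with 2 of 8 higher, against 2.32% of all genes. Microglia markers summed to 43.5 to 53.9 CPM and 45.7 to 54.6 CPM, with 0 of 8 genes at an unadjusted p under 0.05. Meningeal fibroblast markers summed to 15.48 to 55.6 CPM and 23.1 to 29.6 CPM, with 1 of 7 tested genes higher, against 2.32% of all genes. The ranges of these sums overlapped between the genotypes in each list, and in the neuron list 0 of 8 genes had an unadjusted p under 0.05.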

How the data were processed

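TruSeq libraries were made by the authors from poly(A) RNA of each embryo. They aligned 1 read of each pair to GRCm38 and counted reads per gene on GENCODE M25. The submitters' processing notes name STAR 2.7.9a, FastQC and featureCounts (Subread). The deposited unit is the raw count per gene without normalization, for 55401 genes and 9 embryos, with 0 columns of no sample. The strand setting and the handling of multiply aligned reads are not given in the sources used here. Gene coordinates, exon lengths and overlaps came from GENCODE M21 (also GRCm38), which holds all 36 genes, and promoter windows from RefSeq (GRCm38.p6).

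In R 4.3.3, genes were filtered with filterByExpr of edgeR 4.0.16 (minimum count 10), which left 17818 genes. After TMM scaling, HET and WT embryos were compared by the quasi-likelihood test without covariates, adjusted by the Benjamini-Hochberg method over all genes tested (threshold 0.05). List means used log2 CPM with a prior count of 1. DESeq2 1.42.0, other scalings, no filter, a choroid plexus score as a covariate, the embryos with *Ttr* under 100 CPM and leaving out each embryo in turn were alternatives. Scripts were tested on simulated data. The embryos are separate animals, so p-values measure the spread between animals, and depth covers counting error only. Litter and exact embryonic day are not given per embryo. The fit takes the embryos as independent, and the part of litter or day was not tested.

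The genes, their stages and the other lists were chosen with earlier results of these data known, and the direction of a list is no independent support. Every astrocyte lineage gene is named. Values in every embryo are given for those with an unadjusted p under 0.05, for those whose groups did not overlap and for 10 defining genes. Of the signalling list, genes with an unadjusted p under 0.05 are named, and values per embryo of *Fabp7* and *Bmpr1b* and the neighbour *Klf15* were chosen after their values were seen. Sequences are given for the genes with the lowest p of which a window could be shown.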

Additional observations from a re-analysis of the deposited data

Results flagged for a closer look

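In 10 of 72 groups (36 genes in 2 genotypes), 1 embryo stood apart from the others of its genotype by Dixon's criterion. Chance alone gives about 1 in 20 groups, or 3.6 of 72. The 72 include groups with under 10 reads in every embryo, such as those of *Gjb6*, which were not put to the criterion. The figure of 3.6 is therefore slightly too high. Of the 10 groups that stood out, 6 were in WT embryo 5, each time as the highest value. This embryo had 140.2 CPM of *Sox9* against 67.8 to 76.6 CPM in the other WT embryos, and 499.4 CPM of *Nfia* against 269 to 308 CPM. It had 1853 CPM of *Nfib* against 1194 to 1330 CPM, and 217.3 CPM of *Id4* against 118 to 135 CPM. *Hes5* was at 46.64 CPM there against 13.5 to 16.3 CPM, and *Ttyh1* at 276.8 CPM against 180 to 208 CPM.

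In WT embryo 41, *Aqp4* was at 2.017 CPM against 1.17 to 1.42 CPM in the other WT embryos, and *Acsbg1* at 13.76 CPM against 10.9 to 11.2 CPM. In WT embryo 15, *Gpr37l1* was at 0.4423 CPM against 0.217 to 0.221 CPM. In HET embryo 7, *Gfap* was at 12.52 CPM against 7.499 to 8.34 CPM in the other HET embryos. Genes of 1 embryo are not independent of each other, and no cause was tested.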

How the results depend on the processing

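No paired analysis was possible because litters are not given and the groups share only 1 embryo number. Of 15 alternatives, 8 of the 9 genes with an unadjusted p under 0.05 kept their sign in each, *Clu* being the exception. The count of genes called lower was 2 with DESeq2, 1 with no filter on low counts and 0 to 2 on leaving out an embryo (2 without HET embryo 7). The count lower at an unadjusted p under 0.05 was 2 among embryos with low *Ttr*. These were *Hepacam* and *Hes5*, of which *Hes5* was not past that p over all embryos. *Slc4a4* and *Apoe* were higher at that p among embryos with low *Ttr*. The count higher was 1 to 8 on leaving out an embryo (8 without WT embryo 5, 1 without HET embryo 24, 5 or 7 or any other WT embryo). The signalling list had 2 calls with DESeq2, 0 among embryos with low *Ttr* and 0 to 1 on leaving out an embryo (0 without HET embryo 6 or 7 or WT embryo 15, 41 or 43).

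Signs turned in genes near 0 and in *Apoe*, *Clu*, *Hes5*, *Fgfr3*, *Nfia* and *Sox9*. The last 3 had log2 fold changes of 0.23, 0.22 and 0.13 over all embryos. Log2 fold changes among embryos with low *Ttr* were 0.34 for *Apoe*, 0.13 for *Clu*, 0.051 for *Gja1*, 0.17 for *Gpr37l1*, 0.017 for *Mlc1*, −0.070 for *Nfia*, −0.16 for *Sox9*, 0.16 for *Sparc* and −0.098 for *Ttyh1*. With the choroid plexus covariate they were 0.039 for *Apoe*, −0.0036 for *Dbi*, −0.034 for *Ndrg2*, −0.073 for *Sox9*, 0.041 for *Sparc* and −0.051 for *Ttyh1*, and with upper-quartile scaling −0.0014 for *Ndrg2* and −0.00018 for *Sparcl1*. On leaving out an embryo they ran from −0.0083 to 0.073 for *Atp1b2*, −0.0042 to 0.11 for *Dbi*, −0.010 to 0.41 for *Fgfr3*, −0.12 to 0.19 for *Gfap*, −0.11 to 0.047 for *Gja1*, −0.21 to 0.12 for *Gpr37l1*, −0.63 to 0.021 for *Hes5*, −0.012 to 0.22 for *Hopx*, −0.039 to 0.051 for *Ndrg2*, −0.085 to 0.021 for *Sparc* and −0.16 to 0.10 for *Sparcl1*. The cause was not tested, and fewer embryos widen every error. Depth limits *Aqp4*, *Ntsr2*, *Gpr37l1*, *S100b* and *Gjb6* most.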
